A study of Mus musculus with 19 samples.

Results

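Serum-starved NIH3T3 cells, an established line of mouse embryonic fibroblasts, received 50 ng/ml of basic fibroblast growth factor (FGF) for 12 h, and U0126, an inhibitor of the kinase MEK, was added (20 µM) at 1 of 2 times. On the late array U0126 was given 7 h after FGF, so that the cells had 7 h of FGF signalling with MEK active and then 5 h with the inhibitor. On the early arrays U0126 was given 0.5 h before FGF, so that the inhibitor was present throughout. The arms thus differ both in prior MEK activity and in hours of inhibitor, which cannot be told apart here. The comparison is the log2 difference, late minus early, over 14996 genes, and it asks what a period of MEK activity left behind in the transcriptome after the activity was taken away. It uses 3 of the 19 arrays of the series: 1 late array, from experiment 1, and 2 early arrays, from experiments 1 and 2.

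All cells had been held for 48 h in 0.1% serum before FGF was added, and all were of the same line. The arrays set beside the comparison were FGF alone at 12 h (2 arrays), FGF alone at 7 h (2 arrays), FGF for 7 h with U0126 from 0.5 h before it (2 arrays) and FGF for 7 h with U0126 added at 1 h (1 array). In the closing observations FGF for 4 h with U0126 from 0.5 h before it (2 arrays) is given as well. Values are Affymetrix MAS5 signals, a linear brightness scale, and differences were taken on log2(signal + 13.6), which understates the change of dim genes. The late state had no replicate, so its p-values rest on the spread between replicates of the other states. The labels do not say whether replicates were separate cultures, and the p-values then cover only the spread between these arrays.

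FGF binds receptor tyrosine kinases at the cell surface and signals through RAS and RAF to MEK, which phosphorylates and activates ERK. Active ERK raises transcription of immediate-early genes such as Egr1, of feedback inhibitors such as Dusp6 and of Ccnd1, which encodes cyclin D1. Cyclin D1 with its kinases phosphorylates the retinoblastoma protein and releases E2F factors, which drive the genes for DNA replication. In fibroblasts leaving quiescence, sustained ERK activity through much of G1 is needed before the cell commits to S phase.

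The late array was close as a whole to the early arrays, and nearly as close to the arrays of FGF alone. Over all genes tested, its log2 values correlated with the early arrays of experiments 1 and 2 with r = 0.972 and 0.965. The early arrays correlated with each other with r = 0.972. With FGF alone the late array gave r = 0.963 and 0.956 at 12 h, and 0.961 and 0.955 at 7 h. These are descriptions across genes, which are not replicates. Of 10 fibroblast marker genes, 9 were above the 40th percentile of all signals (45.2) on the late array and 10 on each early array, with summed signals of 158206 against 133921 and 160964. The summed signal of 10 macrophage markers was 1954 on the late array against 1623 and 1650, and that of 7 endothelial markers 184 against 142 and 192. No marker list of another cell type held a called gene.

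E2F factors act on short GC-rich sites in promoters, and the called replication genes with the largest differences that held such a site are shown here for that reason. The promoters are from RefSeq (build GRCm38.p6), written 5′ to 3′ in the direction of transcription. The 250 bases before the transcription start were searched on both strands for the words TTTCCCGC, TTTCGCGC, TTTGCCGC and TTTGGCGC, and capitals mark the matches. Cdc6 (chr11:98907983-98908082, plus strand) loads the replicative helicase, Mcm5 (chr8:75109326-75109425, plus strand) and Mcm6 (chr1:128359725-128359845, minus strand) are subunits of that helicase.
Cdc6: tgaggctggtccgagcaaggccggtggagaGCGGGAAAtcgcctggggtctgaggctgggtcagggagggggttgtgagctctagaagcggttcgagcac
Mcm5: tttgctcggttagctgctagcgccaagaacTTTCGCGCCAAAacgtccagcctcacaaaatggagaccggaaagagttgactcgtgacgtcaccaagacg
Mcm6: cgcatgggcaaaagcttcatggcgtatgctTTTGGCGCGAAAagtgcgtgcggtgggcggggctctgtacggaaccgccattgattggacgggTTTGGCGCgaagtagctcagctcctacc
The match in Cdc6 began 138 bases before the start. In Mcm5 matches on opposite strands overlapped, at 153 and 149 bases before the start, and in Mcm6 they overlapped at 110 and 106 bases, with a further match at 47 bases.

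Of all genes tested, 12040 had a promoter entry and 3.12% of these held an E2F word, against 13 of the 66 genes called higher that had an entry (19.7%) and 0 of 11 genes called lower. By list, a word stood in 7 of 19 licensing and helicase promoters and in 6 of 19 promoters of the G1/S cyclin and E2F list, but in 2 of 29 of the replication fork list. The 3 promoters shown are not typical of the called genes of these lists. Of 31 such genes 23 had a promoter entry, and 7 held an E2F word. Tk1, with the largest difference, E2f8 and Rrm2 had an entry but no match. A match is a string of letters and not a bound site. The word TGANTCA of AP-1, the dimer of Fos and Jun proteins, was in 5.01% of all promoters and in 2 of the 66 (3.03%).

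Genes of DNA replication were the main group that stood higher after 7 h of MEK activity and 5 h of its inhibition. In the list of ERK targets and feedback inhibitors limma called 0 of 32 genes. Egr3, also an immediate target of ERK but placed in the immediate-early list, was called higher. In total 84 genes were higher in the late than in the early state (0.56% of those tested) and 17 were lower (0.113%) at an adjusted p under 0.05 (limma, two-sided, Benjamini-Hochberg over 14996 genes). The median difference of the higher genes was 1.88 (0.85 to 3.93) and that of the lower genes -1.17 (-0.69 to -2.83), against -0.0028 over all genes. Of the 84, 38 belonged to 5 lists of cell-cycle genes (45.2%), which held 141 tested genes. Of these 141, 0 were lower by limma, and 2 were lower at an unadjusted p under 0.05. Of all 14996 genes, 671 were higher and 688 lower at that unadjusted limit.

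The late signal lay above both early signals for all 84 higher genes and below both for all 17 lower ones. It also did so for 33.8% and 35.7% of all genes tested. The genes were called from these same arrays, so this position is no further support. Within experiment 1, which holds the late array and 1 early array, the 84 differed by 0.74 to 3.41 and the 17 by -0.65 to -2.67. With the experiment number as a block, 337 genes passed, 223 higher (1.49%) and 114 lower (0.76%), and all 101 were among them. With the early array of experiment 2 left out 33 genes passed, with that of experiment 1 left out 80, and without a variance trend 24. Of the 84 higher genes, 26 passed with each early array left out in turn, while 0 of the 17 lower genes did.

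**Figure D1:**
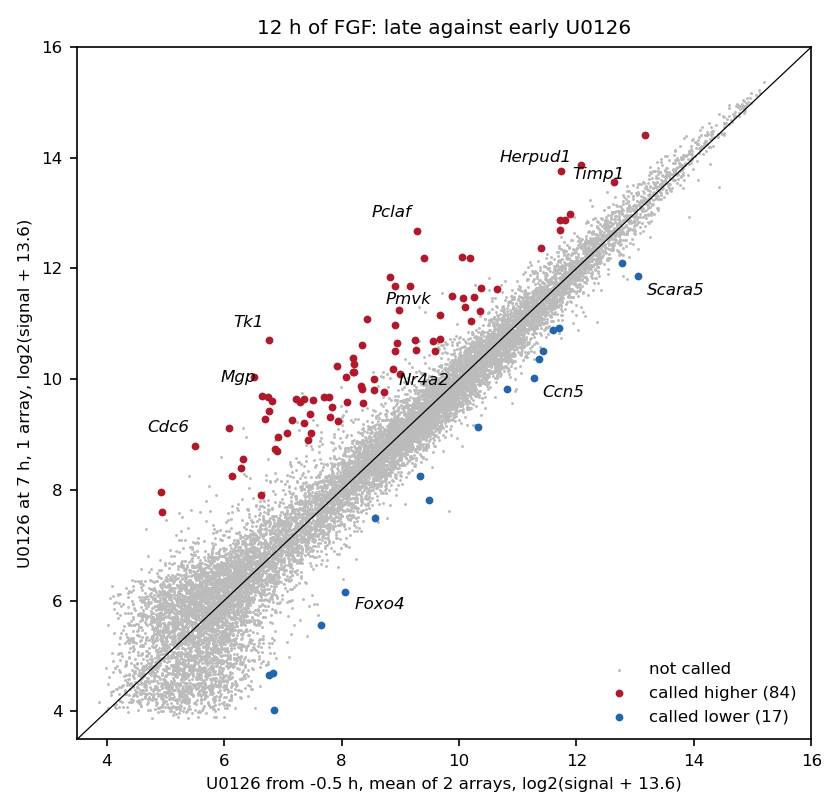
Each point is a gene, with the mean log2(signal + 13.6) of the 2 early arrays on the horizontal axis and the value of the late array on the vertical axis; the line marks equal values. The 84 genes called higher (red) reach 3.93 above the line and the 17 called lower (blue) reach -2.83 below it, while the other genes scatter around it, most widely at low signal.

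The largest difference belonged to Tk1, thymidine kinase, which salvages thymidine for DNA synthesis. Its signal was 1649 on the late array, 155.7 and 56.7 on the early arrays of experiments 1 and 2, and 4224 and 2974 on the 2 arrays of FGF alone at 12 h. The late signal thus stood between groups that did not overlap. The log2 difference was 3.93 ± 0.56 (SE), a 15.2-fold higher level (adjusted p = 0.00383). The early arrays differed for this gene, and the difference was 4.56 without that of experiment 1 and 3.30 without that of experiment 2. It passed in both, but not without a variance trend (adjusted p = 0.0716).

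Origin licensing, the loading and activation of the MCM helicase at replication origins, had 10 of 24 tested genes higher and 0 lower, with a median difference of 1.25. Mcm5 had signals of 3666 on the late array, 568.9 and 339.1 on the early arrays, and 7895 and 6836 with FGF alone. Mcm6 had 3283 on the late array, 606.0 and 356.1 on the early arrays, and 7127 and 6369 with FGF alone. For both helicase subunits the late array was far above the early pair and below the FGF pair. The differences were 3.02 ± 0.33 for Mcm5 (adjusted p = 0.00046) and 2.78 ± 0.33 for Mcm6 (adjusted p = 0.00092).

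Of the other helicase subunits, Mcm3 was higher by 2.08 ± 0.28, Mcm7 by 2.01 ± 0.21 and Mcm4 by 1.40 ± 0.17, with adjusted p of 0.0026, 0.00033 and 0.00092. Mcm2 had 1117 on the late array against 626 and 958, a difference of 0.52 that did not pass (adjusted p = 0.75). Cdc45, which joins the helicase as it is activated, was higher by 2.10 ± 0.30 (773.1 against 179.6 and 161.0). Another Cdc45 probe set gave -0.86 and did not pass. Cdc6 had 430.5 on the late array, 48.2 and 19.7 on the early arrays and 1938 and 1673 with FGF alone. Its fitted difference was 3.29 ± 0.54 (adjusted p = 0.0101, and 0.0512 with an offset of 1), but the early mean was under the 40th percentile of all signals (45.2), near the floor, so its size is not well measured. Gins1, Gins2 and the licensing inhibitor Gmnn made up the rest of the 10.

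Licensing genes did not all stand high. Cdt1, the partner of Cdc6 in loading the helicase, had 2329 on the late array, 1810 and 2106 on the early arrays, and 7919 and 8040 with FGF alone. Its difference from the early state was 0.25 ± 0.18 (adjusted p = 0.75), and its log2 difference from FGF alone was -1.77 (adjusted p = 5.9e-05). The kinase gene Cdc7 differed by 0.32 ± 0.27 and the origin recognition genes Orc2 to Orc5 by 0.09 to -0.43, none of which passed. Without the early array of experiment 2 the adjusted p was 0.0957 for Cdc6, 0.215 for Gins1, 0.22 for Gins2 and 0.149 for Gmnn, whereas Mcm3 to Mcm7 and Cdc45 passed without either early array.

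The replication fork and nucleotide list, which covers polymerases, clamp loaders and enzymes that make deoxynucleotides, had 14 of 33 genes higher and 0 lower, with a median of 1.25. At an unadjusted p under 0.05 it was 30 of 33, and with the experiment as a block 24 were higher. All 33 had a late signal above both early signals, and for 30 of them it lay between the early and the FGF arrays, against 6.69% of all genes. The 4 largest were Tk1, Pole, Rrm2 and Asf1b.

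Pole, the catalytic subunit of the leading-strand polymerase, had 800.9 on the late array against 79.6 and 110.3 on the early arrays (2.92 ± 0.31). Rrm2, a subunit of ribonucleotide reductase, had 4642 against 885.6 and 493.6 (2.79 ± 0.48). Prim1, the primase that starts each new strand, had 2414 against 537.5 and 447.8 (2.27 ± 0.21, adjusted p = 7.9e-05). Pcna, the sliding clamp, was already bright in the early state at 10010 and 8362 and had 21638 on the late array, a 2.36-fold difference.

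Not all fork genes passed the test. Tyms, thymidylate synthase, had 66 on the late array against 62 and 54, with 333 and 348 for FGF alone, and Fen1, the flap endonuclease, had 1740 against 913 and 1045. Neither passed (adjusted p = 0.96 and 0.38), although both late signals were above the early pair. Leaving out the early array of experiment 2 raised the adjusted p to 0.124 for Rrm2, 0.0604 for Asf1b and 0.0845 for Pcna, while Tk1, Pole and Prim1 passed without either early array.

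Among the G1/S cyclins and E2F genes, 7 of 26 were higher and 0 lower, with a median of 0.46. Cyclin E, which drives entry into S phase with CDK2, was called higher through both of its genes. Ccne1 lost its call in 5 of 14 alternatives, and another of its probe sets gave 1.24 and did not pass. Ccne2 had 765.6 on the late array, 78.1 and 124.9 on the early arrays and 2686 and 1531 with FGF alone (2.79 ± 0.40, adjusted p = 0.0042). Ccne1 had 581.5 against 177.9 and 126.6 (1.86 ± 0.37, adjusted p = 0.031). The others were Fbxo5, an inhibitor of the anaphase-promoting complex, Ccna2 (cyclin A), the pocket protein gene Rbl1 and the repressor E2F genes E2f7 and E2f8.

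The activator E2F genes and the D-type cyclins were not among the called genes. E2f1 had 746.3 on the late array against 463.2 and 493.5, with 1501 and 1206 for FGF alone (0.63, unadjusted 95% interval 0.11 to 1.14, adjusted p = 0.42), so its late signal too lay between the groups, and E2f3 differed by 0.02 ± 0.19. Ccnd2 and Ccnd3 differed by 0.17 and 0.24, and Ccnd1 by -0.50, none of which passed. Without the early array of experiment 2 the adjusted p was 0.146 for E2f8, 0.124 for Fbxo5 and E2f7, 0.189 for Rbl1, 0.241 for Ccne1 and 0.266 for Ccna2. Fbxo5, Ccne1 and Ccna2 were also past 0.05 without that of experiment 1 (0.0644, 0.0506 and 0.0535).

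DNA repair and checkpoint genes had 5 of 23 higher and 0 lower (10 higher with the block), with a median of 0.94. The 5 were the homologous recombination gene Rad54l, Brca1, Fanca, the ubiquitin ligase gene Rad18 and Topbp1, which activates the ATR kinase. Brca1 had 362.5 on the late array against 58.9 and 74.9 (2.23 ± 0.34) and passed without either early array, but not with the compared arrays only (adjusted p = 0.0552). Its probe sets disagreed: the most variable one gave 2.62 (adjusted p = 0.158) and another 0.43. Fanca too lost its call with its most variable probe set (adjusted p = 0.422). Rad54l had 604.9 against 108.9 and 75.1 (2.57 ± 0.40). Without the early array of experiment 2 the adjusted p was 0.0729 for Rad54l, 0.133 for Fanca, 0.146 for Rad18 and 0.317 for Topbp1, and without that of experiment 1 it was 0.0535 for Rad18 and 0.0583 for Topbp1.

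Genes of G2 and mitosis had 2 of 35 higher and 0 lower, but a median of 1.20. At an unadjusted p under 0.05, 26 were higher and 0 lower, and 10 were higher with the block. Their late signal lay above both early signals in 33 of 35 and between the early and FGF arrays in 28. Bub1, a kinase of the spindle checkpoint, had 675.4 on the late array against 133.8 and 66.5 (2.66 ± 0.36). Another Bub1 probe set gave 0.85 and did not pass. Birc5 (survivin) had 1551 against 415.2 and 232.6 (2.27 ± 0.39, adjusted p = 0.124 without the early array of experiment 2). In this list the early arrays stood apart, with medians of 0.78 against the early array of experiment 1 and 1.39 against that of experiment 2. For Cdk1, with 2791 against 1392 and 788, the difference was 1.40 ± 0.34 and the adjusted p 0.087.

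Pclaf, a clamp-binding factor of replicating cells, and Kntc1, a kinetochore protein, were among the largest differences outside these lists. Pclaf had 6558 on the late array, 682.8 and 547.1 on the early arrays, and 7710 and 6400 with FGF alone, so that the late signal lay within the FGF pair. The difference was 3.39 ± 0.29, a 10.5-fold higher level (adjusted p = 5.3e-05). Kntc1 had 1044 against 86.0 and 69.3 (3.54 ± 0.57, adjusted p = 0.00925, and 0.0749 without the early array of experiment 2). Dscc1, a subunit of an alternative clamp loader, was higher by 3.03 ± 0.41.

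**Figure D2:**
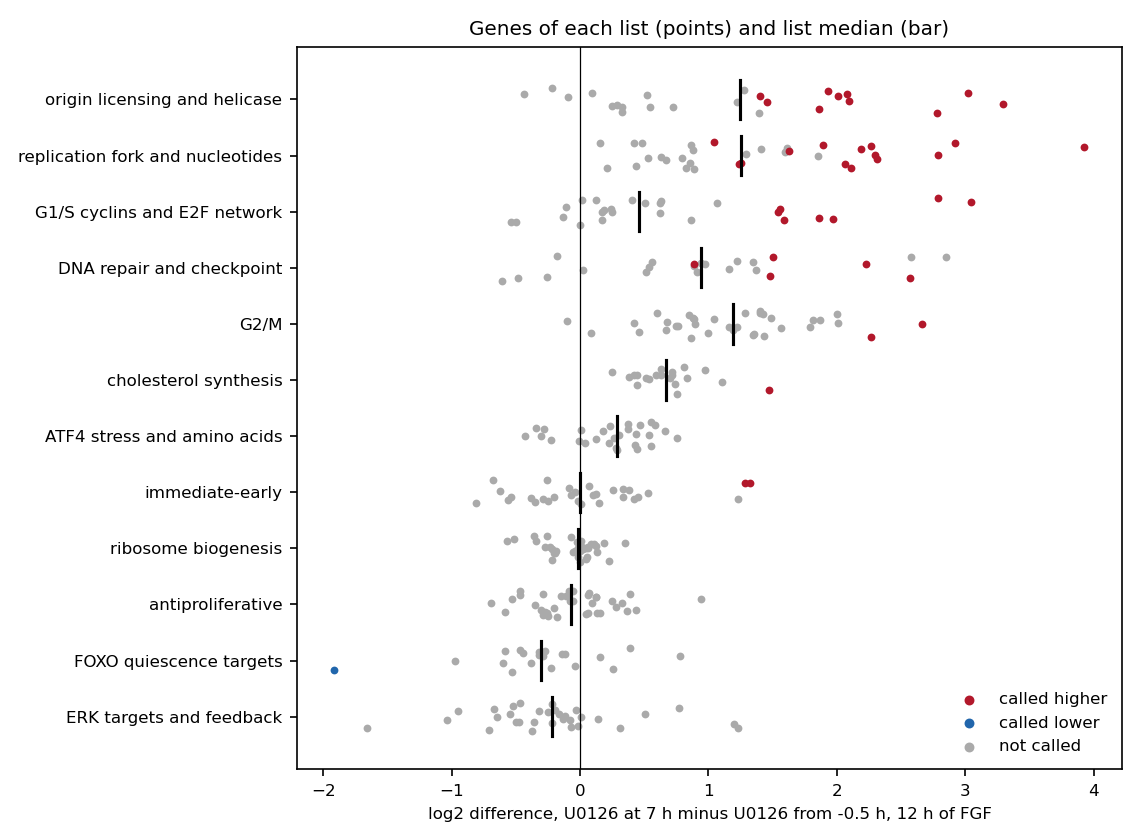
Each point is a gene of the list named on the vertical axis, placed by its log2 difference (U0126 at 7 h minus U0126 from -0.5 h, at 12 h of FGF); bars are list medians and colours mark calls. Licensing, fork, repair and G2/M genes have medians from 0.94 to 1.25 and no gene called lower, whereas ERK targets centre on -0.22 with no gene called.

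Most ERK targets and feedback inhibitors stood near or below the early level. Of 32 tested, 0 were called by limma in either direction, with a median of -0.22. At an unadjusted p under 0.05, 3 were higher and 8 lower, with the block 2 were called higher and 2 lower, and 20 of the 32 had a late signal below both early signals and 5 above both. The highest, at 1.23, was Egr1. Dusp6, the phosphatase that inactivates ERK, had 1050 on the late array, 1405 and 1630 on the early arrays, and 6720 and 6741 with FGF alone. Hmga2, a chromatin protein, had 400.9 on the late array, 1218 and 569.6 on the early arrays, and 12112 and 13005 with FGF alone.

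For both genes the late signal was the lowest of these 5 and far from the FGF pair. The differences did not pass, at -0.52 for Dusp6 (95% interval -0.95 to -0.10, adjusted p = 0.41) and -1.03 for Hmga2 (-1.84 to -0.22, adjusted p = 0.38). The intervals are not adjusted for the number of genes tested, and both lay below 0. With the probe set of highest variance as the measure of Hmga2 its adjusted p was 0.041.

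Ccnd1 had 1275 on the late array, 1706 and 1919 on the early arrays, and 5976 and 5388 with FGF alone (-0.50, interval -0.92 to -0.08). Its other probe sets gave -0.06 and 0.21, so no direction is given for it. Myc had 1858 against 2769 and 3183, with 3277 and 3760 for FGF alone (-0.67, interval -1.09 to -0.26, adjusted p = 0.19). Fosl1, a Fos-family subunit of AP-1, had 711.8 against 662.7 and 918.1 (-0.13, interval -0.72 to 0.46). Spry4, a Sprouty inhibitor of receptor signalling, was dim throughout, at 60.4 against 56.7 and 72.8. None of the 4 passed.

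The EGR genes are immediate targets of ERK through serum response factor and ETS partners. By the probe sets used here, Egr3 and Egr1 stood a little above the early level. Egr3 had 226.4 on the late array, 74.0 and 97.3 on the early arrays, and 662.3 and 619.0 with FGF alone, and was higher by 1.28 ± 0.23 (adjusted p = 0.017, and 0.0908 without the early array of experiment 1). Another Egr3 probe set gave -0.00088 and did not pass. Egr1 had 139.2 against 43.4 and 60.7, with 1132 and 1404 for FGF alone. Egr1 did not pass (1.23 ± 0.36, adjusted p = 0.20, and 0.0067 with the block). Of the 30 immediate-early genes tested, 2 were higher and 0 lower, with a median of -0.0033, and 3 were higher and 1 lower at an unadjusted p under 0.05.

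Against FGF alone at 12 h, a comparison that shares the late array, the same lists gave the following. In the late state 371 of all genes were higher (2.47%) and 387 lower (2.58%) than with FGF alone. Of the ERK targets 17 of 32 were lower and 1 higher, with a median of -1.13. Of the licensing genes 10 of 24 were lower, with a median of -0.94, and of the fork genes 12 of 33, with a median of -0.90. FGF alone minus early U0126, which shares the early arrays, had 868 higher (5.79%) and 938 lower (6.26%), with 21 licensing, 32 fork and 16 ERK target genes higher and list medians of 2.03, 2.21 and 0.69.

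**Figure D3:**
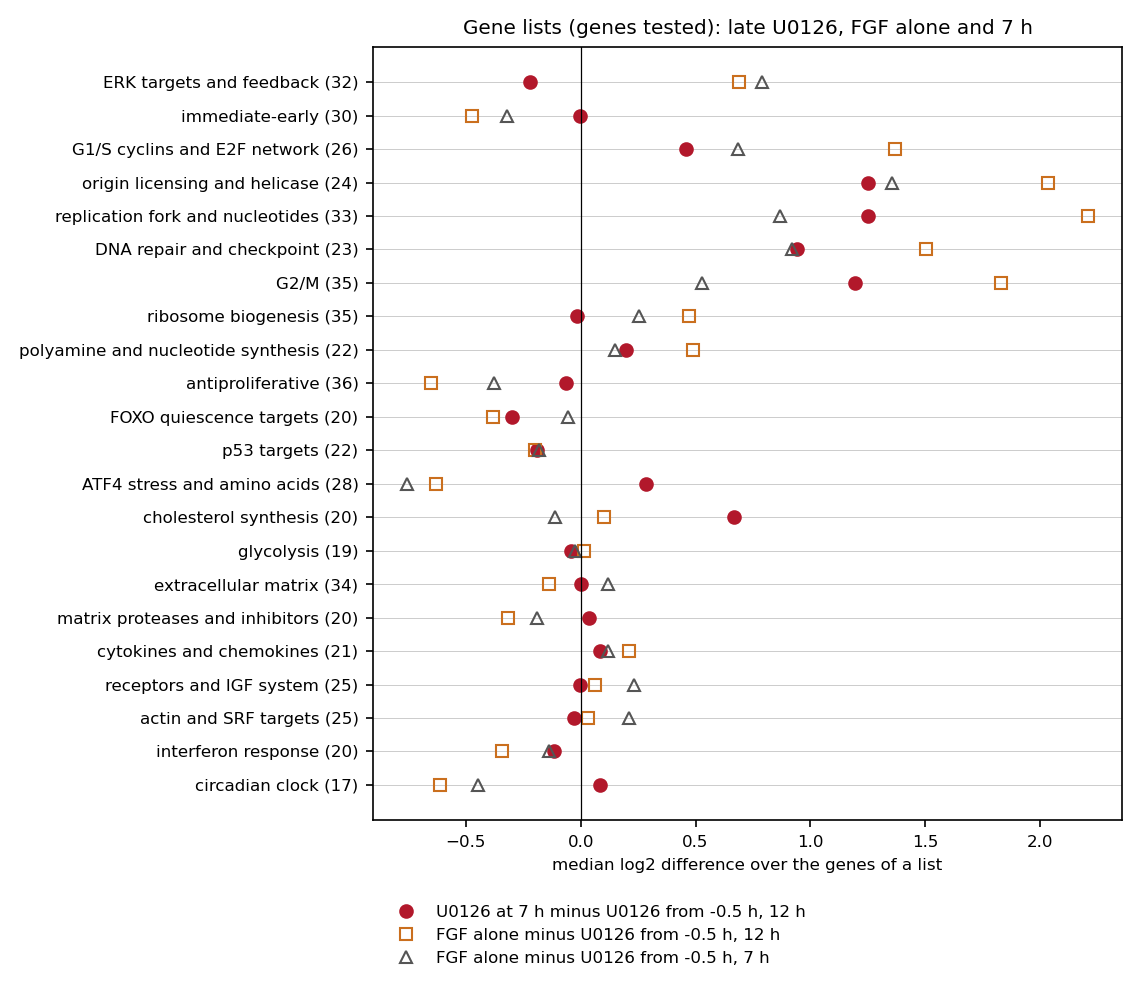
Each row is a gene list with the number of genes tested, and the symbols give its median log2 difference in 3 comparisons: late minus early U0126 at 12 h (filled circle), FGF alone minus early U0126 at 12 h (square, shares the early arrays) and FGF alone minus early U0126 at 7 h (triangle, shares no array with the circle). For licensing and fork genes the circle is at 1.25 in both lists and the square at 2.03 and 2.21; for ERK targets the circle is at -0.22 and the square at 0.69.

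Among the growth-related lists, ribosome biogenesis genes, which make and modify ribosomal RNA, had 0 of 35 called by limma (0 higher and 2 lower at an unadjusted p under 0.05) and a median of -0.01. The antiproliferative list had 0 of 36 called (0 higher and 3 lower at an unadjusted p under 0.05, and 1 lower with the block) and a median of -0.07. Over all 14996 genes 671 were higher and 688 lower at that limit, so these small unadjusted counts are not read as results. Jund, an AP-1 subunit that restrains growth, had 7966 on the late array, 10620 and 7909 on the early arrays, and 1700 and 1225 with FGF alone. Gadd45a, a stress-induced growth inhibitor, had 2391 against 2942 and 4064, with 628.1 and 600.5 for FGF alone.

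In both genes the late signal was near the early pair and well above the FGF pair, and neither difference passed (-0.20 and -0.53). Tob1, a BTG/TOB antiproliferative gene, had 7296 against 6517 and 5198, with 3370 and 2577 for FGF alone (0.33, interval -0.35 to 1.00). Btg2, of the same family, differed by -0.29, the cyclin-dependent kinase inhibitor genes Cdkn1a and Cdkn1b by 0.12 and -0.05, and the cyclin G2 gene Ccng2 by -0.59, none of which passed. For the p53 targets, glycolysis, cytokine, growth factor receptor, actin, interferon, clock and polyamine lists limma called 0 genes, and at an unadjusted p under 0.05 a list had at most 5 genes higher and 3 lower. With the block 2 polyamine genes were called higher, and 2 clock genes and 1 interferon gene lower.

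Another group of genes stood at the level of cells with FGF alone. Mgp, matrix Gla protein, which inhibits calcification, had 815.7 on the late array, 97.9 and 76.9 on the early arrays, and 778.3 and 722.7 with FGF alone. Timp1, an inhibitor of matrix metalloproteases, had 13839 on the late array, 3588 and 3209 on the early arrays, and 11588 and 12977 with FGF alone. The late signal was above both FGF signals in each case. Mgp was higher than in the early state by 3.05 ± 0.24 and Timp1 by 2.02 ± 0.17 (both adjusted p = 5.3e-05), and against FGF alone they differed by 0.12 and 0.17 (adjusted p = 0.87 and 0.69).

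Slit2, a secreted guidance protein, and Aqp1, a water channel, were chosen after their values were seen and lay below both FGF signals but nearer to them than to the early pair. Slit2 had 1650 on the late array, 536.5 and 657.9 on the early arrays, and 1696 and 2005 with FGF alone (1.45 ± 0.23). Aqp1 had 7508 against 3494 and 3261, with 9077 and 8885 for FGF alone (1.15 ± 0.16). Mgp, Timp1, Slit2 and Aqp1 passed without either early array. The collagen gene Col8a1 was higher by 1.14 ± 0.20 (1633 against 723.7 and 748.2), but its adjusted p was 0.0644 and 0.0986 without the early array of experiment 1 and of experiment 2, and 0.4 with its most variable probe set.

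Of the 84 higher genes, 66 had a late signal below both signals of FGF alone (78.6%), 4 lay within the FGF pair and 14 lay above both (16.7%). Over all genes tested, 34.4% were below and 40.4% above. The 14 included genes that were not replication genes, and several had signals well above those of both other 12 h states.

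**Figure D4:**
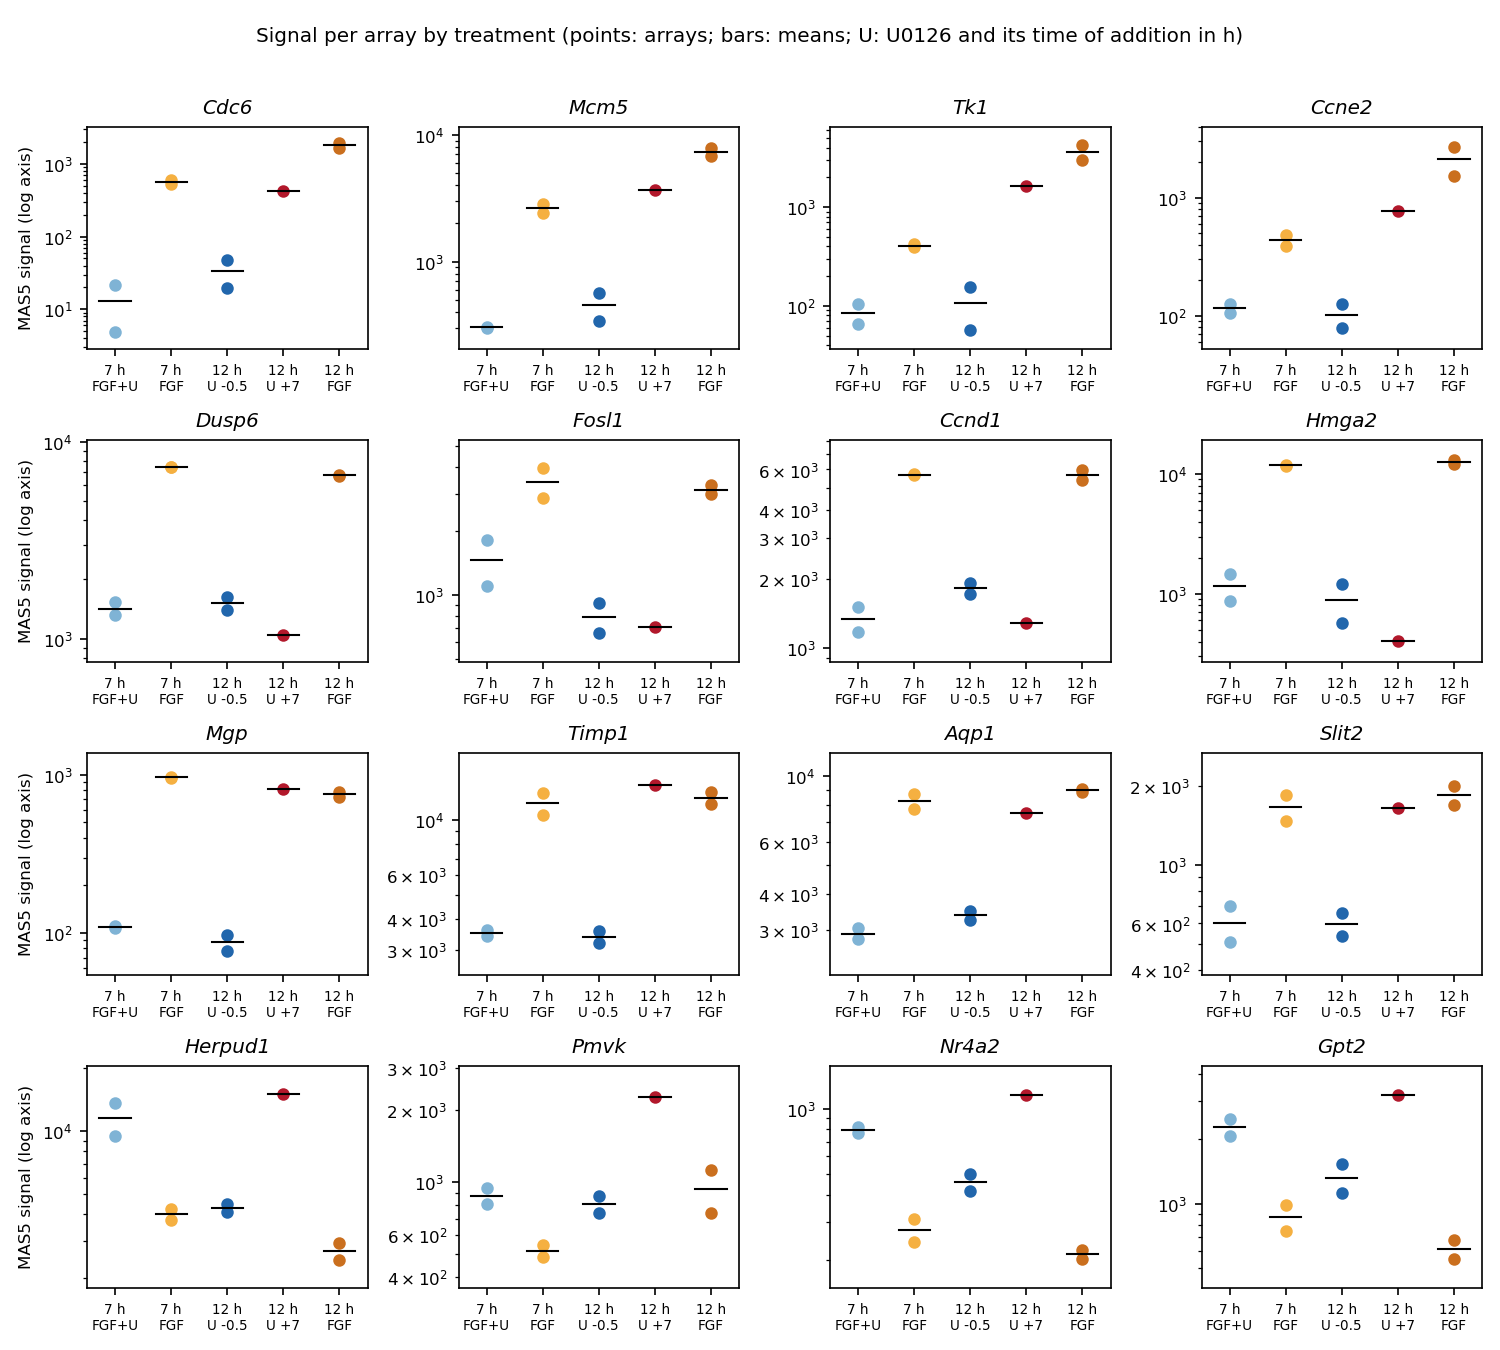
MAS5 signal on a log axis for 16 genes in 5 states; points are arrays and bars are means (U, U0126 with its time of addition in h). In the top row the late array lies between the early and FGF arrays. In the next row it lies within the early pair for Fosl1 and below that pair for Dusp6, Ccnd1 and Hmga2. In the third it lies near the FGF pair, above it for Mgp and Timp1 and below it for Aqp1 and Slit2. In the bottom row it lies above both, with Herpud1 at 14951 against 4484 and 4096 early and 2932 and 2431 with FGF alone.

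Pmvk, phosphomevalonate kinase of cholesterol synthesis, had 2265 on the late array, 875.0 and 743.0 on the early arrays, and 1124 and 743.7 with FGF alone. It was higher than in the early state by 1.47 ± 0.25 (adjusted p = 0.012, and 0.109 without the early array of experiment 2) and higher than with FGF alone by 1.30. It was the only called gene of the 20 tested in the cholesterol list, in which all 20 had a late signal above both early signals and 19 above both FGF signals. At an unadjusted p under 0.05, 19 were higher and 0 lower. The list median was 0.67, with medians of 0.44 against the early array of experiment 1 and 0.85 against that of experiment 2, and 6 genes were higher with the block.

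Mvd, the next enzyme of the mevalonate pathway after Pmvk, had 3127 against 1701 and 1226 and did not pass (1.11 ± 0.26, adjusted p = 0.084). Hmgcs1 and Sqle, enzymes of the same pathway, differed by 0.45 and 0.38 and did not pass. The orphan nuclear receptor gene Nr4a2 had 1155 on the late array, 415.2 and 496.0 on the early arrays, and 222.7 and 201.0 with FGF alone. It was higher than in the early state by 1.32 ± 0.26 (adjusted p = 0.031, and 0.153 and 0.109 without the early array of experiment 1 and of experiment 2). The other probe sets of Nr4a2 gave 0.46 to 1.34, and none of them passed. The stress list of ATF4 targets and amino acid genes had 0 of 28 called by limma (7 higher and 0 lower at an unadjusted p under 0.05). Its median was 0.29, with 4 higher under the block and 14 higher than with FGF alone.

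The 17 lower genes formed no list. On 12 of them (70.6%) the late array had the lowest signal of all 19 arrays, against 5.91% of all genes. The genes were called from that same array, so its low rank is no further support. FOXO4 is a transcription factor that the AKT kinase keeps out of the nucleus, and its gene Foxo4 had 57.5 on the late array, 232.1 and 277.7 on the early arrays, and 194.2 and 273.4 with FGF alone. The late signal was below the range of the other 4, by -1.91 ± 0.34 against the early state (adjusted p = 0.015, and 0.124 without the early array of experiment 2). Another Foxo4 probe set gave 0.24 and did not pass. Without the block Foxo4 was the 1 called gene of 20 in the FOXO list, whose median was -0.30. With the block 2 were lower, and 5 were at an unadjusted p under 0.05.

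The largest differences downward had very low late signals. 1700001G17Rik had 2.6 on the late array against 89.4 and 114.7 (-2.83 ± 0.52). Npn2 had 11.5 against 98.8 and 90.7, and Tnfrsf25, a death-domain receptor gene, had 12.3 against 68.9 and 143.5. Npn2 lost its call in 10 of 14 alternatives, and another of its probe sets gave 0.20 and did not pass. Sting1, the adaptor of cytosolic DNA sensing, had 33.3 against 207.9 and 169.0, but its most variable probe set gave -0.42 (adjusted p = 0.936). These 4 late signals lay under the 40th percentile of all signals (45.2), and the late state has no other array on which to read them.

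At higher signal, Tenm4, a teneurin adhesion protein gene, had 212.9 on the late array, 665.1 and 749.5 on the early arrays, and 252.2 and 222.7 with FGF alone (-1.67 ± 0.31). Ccn5, a matricellular protein gene, had 1027 against 3045 and 1998, with 245.1 and 199.9 for FGF alone (-1.25 ± 0.25). Scara5, a ferritin receptor gene, had 3735 against 8247 and 8655, with 3269 and 2758 for FGF alone (-1.17 ± 0.22). In all 3 the late signal was below the early pair in the direction of the FGF pair, and for Tenm4 it was below that pair too. With the most variable probe set, Tenm4 differed by -0.67 and Scara5 by -0.87, and neither passed (adjusted p = 0.902 and 0.904).

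The rest of the named lower genes were Sertad4, Rassf5, Rps6kc1 and Hcfc1r1, with differences of -0.99 to -1.17. None of the lower genes kept its call without each early array in turn. Without the early array of experiment 1 the adjusted p was 0.157 for Ccn5, 0.0682 for Scara5 and 0.0539 for Tenm4, and without that of experiment 2 it was 0.0202, 0.146 and 0.146.

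A comparison that shares no array with this one is FGF alone minus early U0126 at 7 h, the time at which the inhibitor was added to the late cells. At 7 h 456 genes were higher with FGF alone (3.04%) and 455 lower (3.03%). Of the 84 genes higher in the late state at 12 h, 53 were also higher at 7 h (63.1% of the 84 and 11.6% of the 456), 7 were lower, and the median 7 h difference was 1.03. Of the 17 lower genes, 4 were also lower at 7 h (23.5% of the 17 and 0.879% of the 455) and 2 were higher.

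The reverse reading differed. Over the 456 genes higher at 7 h the median difference late minus early at 12 h was 0.09, and 58.8% were on the positive side. Across all 14996 genes the differences of the 2 comparisons correlated with r = 0.109 and rho = 0.072, a description across genes, which are not independent replicates; the 2 comparisons share the estimate of the spread. Timp1 was higher by 1.72 at 7 h and 2.02 at 12 h in the late state, and Mcm5 by 3.06 and 3.02. For Dusp6, the 7 h difference was 2.37 and the late difference at 12 h -0.52, and for Hmga2 they were 3.37 and -1.03.

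Few G2/M genes passed at 7 h. Of the 35 G2/M genes 1 was higher at 7 h, with a list median of 0.53. Bub1 had 187.3 and 185.9 with FGF alone at 7 h and 675.4 on the late array at 12 h, and its 7 h difference did not pass (0.75, adjusted p = 0.19). Kntc1 had 119.9 and 255.9 with FGF alone at 7 h and 1044 on the late array. Tk1, which was higher at 7 h as well (2.12, adjusted p = 0.0112), had 423.3 and 391.4 there and 1649 on the late array. For these 3 genes the late signal was above both signals measured with FGF alone at 7 h, when the inhibitor was added. This did not hold for all called genes. The late signal was below both for Cdc6 (430.5 against 603.2 and 523.9), Dtl (404.9 against 567.9 and 522) and Uhrf1 (760.1 against 782.5 and 868.6).

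**Figure D5:**
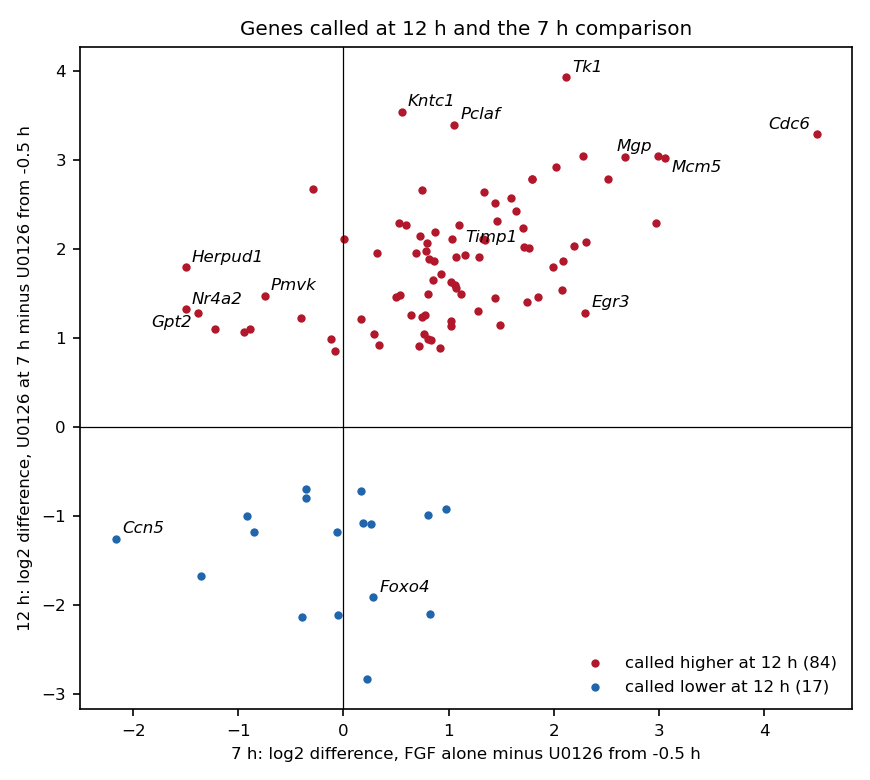
Each point is 1 of the 101 genes called at 12 h, with the 7 h difference (FGF alone minus early U0126) on the horizontal axis and the 12 h difference (late minus early U0126) on the vertical axis; the 2 axes share no array. Of the 84 genes called higher 73 lie to the right of 0, and those to the left include Herpud1, Nr4a2, Gpt2 and Pmvk; of the 17 called lower 9 lie to the left.

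The series also holds a shorter exposure, in which U0126 was added 1 h after FGF and cells were taken at 7 h, so that the same subtraction can be made after 1 h of MEK activity. U0126 at 1 h minus U0126 from the start gave 0 called genes by limma (437 of 14996 at an unadjusted p under 0.05, and 4 with the block). The difference between the 12 h and the 7 h subtractions was tested directly and had 6 genes higher (0.04%) and 0 lower. It had 718 of 14996 at an unadjusted p under 0.05, and 79 called with the block. Both unadjusted counts are below the share of genes that a limit of 0.05 passes when nothing differs. The 6 genes called without the block were Pclaf, Prim1 and 4 subunits of the MCM helicase.

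The 5 largest were Pclaf at 3.68 ± 0.42 (adjusted p = 0.00484), Mcm5 at 3.29 ± 0.47 (0.0198), Mcm6 at 3.11 ± 0.47 (0.0265), Mcm7 at 2.27 ± 0.29 (0.0132) and Prim1 at 2.16 ± 0.29 (0.014). The other was Mcm4 at 1.48 ± 0.24 (0.0464). In the 7 h cells Mcm5 had 248.8 with U0126 at 1 h and 304.3 and 301.9 with U0126 from the start, and Pclaf had 546.7 against 595.7 and 747.5. Not all genes were flat there. Mgp had 345.4 against 107.5 and 110.6 (1.55), and Timp1 had 6417 against 3432 and 3615 (0.86). Neither of these passed, and their differences between the 12 h and 7 h subtractions did not pass either. Each subtraction has 1 array in its later-inhibitor arm. The count fell to 2 without the 12 h early array of experiment 2 and to 1 without the 7 h early array of experiment 1, rose to 11 without the 12 h early array of experiment 1, and was 0 without a variance trend.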

How the data were processed

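RNA of 19 samples was measured on Affymetrix mouse expression arrays; per the labels the authors computed MAS5 signal intensity, scaled to a trimmed mean of 500. The version of MAS5 is not given in the sources used here. The arrays hold 45101 probe sets: 64 controls, 34945 annotated to 1 gene (204 of which RefSeq lacks, so they keep the older symbol), 932 to several and 9160 to none.

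Signals were taken as log2(signal + 13.6, the 20th percentile). A probe set was kept if it exceeded the 40th percentile on 2 or more arrays, and the brightest on average stood for its gene. Quiescent replicates 1a and 1b were averaged. All 11 groups (18 columns) were fitted by limma 3.58.1 (R 4.3.3; lmFit, eBayes with trend, 7 residual and 7.47 prior degrees of freedom), and the script was tested on simulated data. Array number limits precision.

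Named genes were the 12 largest changes each way among called genes above the median signal, up to 4 called genes per list, the 5 largest differences between 12 h and 7 h, and 20 set genes. Experiment numbers in the titles paired the samples: deviations of samples sharing a number correlated by 0.127 to 0.305 in 21 pairs of groups, so blocked counts are given. Lists, members and rules were chosen with earlier results of these data known.

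Alternatives were other scaling, offsets, filters, probe set rules, no trend, the block, fewer arrays and each early array left out.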

Additional observations from a re-analysis of the deposited data

Results flagged for a closer look

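For 5 named genes the late-minus-early difference at 12 h was larger than the same subtraction after U0126 at 1 h, measured at 7 h, by a direct test of the difference. These were Pclaf (3.68), Mcm5 (3.29), Mcm6 (3.11), Mcm7 (2.27) and Prim1 (2.16), on the log2 scale. With the experiment as a block their adjusted p (limma) lay between 1.1e-05 and 7.9e-05. Both subtractions have a single array in the arm with the later inhibitor. They also differ in hours of FGF and of inhibitor, which cannot be told apart from the length of MEK activity.

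Probe sets that could not be given 1 gene were outside the comparisons of genes. Of 6622 such probe sets tested, 4 were called higher and 3 lower in the late state.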

How the results depend on the processing

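The late state is 1 array, so its own spread is taken from the other states, and signals under about 45.2 were near the floor. The 101 called genes became 24 without a variance trend, 337 with the replicate block, in which experiment numbers pair the samples, and 33 to 80 with each early array left out. Under the other alternatives the count was 68 to 122. The 6 genes of the difference between 12 h and 7 h became 11 with the offset at the 40th percentile, 0 without a variance trend, 2 with the probe set of highest variance and 79 with the replicate block. With each 12 h early array left out they were 2 to 11, and with each 7 h early array left out, an alternative chosen after seeing the data, 1 to 4. No named gene changed direction past a threshold. Of the 42 called genes named by rule, 28 lost their call without the trend, 24 and 15 without the early array of experiment 2 and of experiment 1, 18 with the compared arrays only, 9 with the probe set of highest variance and at most 5 elsewhere, among them Cdc6 and E2f8 with an offset of 1. Pclaf, Mgp, Dscc1, Mcm5, Pole, Mcm6, Bub1, Prim1, Cdc45, Timp1 and Mcm7 passed in all alternatives. The cause of these shifts was not tested.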

Other observations

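Several genes of protein folding and degradation in the endoplasmic reticulum (ER) stood above both other states at 12 h. A list of 27 such genes, written after these values were seen and so no support for a theme, had 25 tested, of which 3 were higher and 0 lower, with a median of 0.23 (6 higher with the block). Herpud1, a membrane protein of ER-associated degradation, had 14951 on the late array, 4484 and 4096 on the early arrays, and 2932 and 2431 with FGF alone. It was higher than in the early state by 1.80 ± 0.20 (adjusted p = 0.00046), and it passed without either early array. Syvn1, the ubiquitin ligase of the same route, had 2860 against 1377 and 1068 (1.23 ± 0.22), and the ER chaperone cofactor gene Sdf2l1 had 8109 against 4487 and 3156 (1.10 ± 0.20). Without the early array of experiment 2 their adjusted p was 0.146 and 0.133.

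In 23 of the 25 the late signal was above both signals of FGF alone, against 40.4% of all genes tested. In 19 it was above both early signals, against 33.8% of all genes tested. Both early signals themselves lay above both FGF signals in 20 of the 25, against 4209 of all 14996 genes. Hspa5, the main ER chaperone, had 31901 on the late array against 25642 and 29117 on the early arrays and did not pass (0.22 ± 0.19). In cells with FGF and U0126 from the start, taken at 7 h, Herpud1 had 13610 and 9443 and Sdf2l1 8119 and 7180, near the late signals at 12 h. Taken at 4 h, such cells had 18139.5 and 16121.3 for Herpud1 and 6274.3 and 5215.2 for Sdf2l1. The early arrays at 12 h lay below those levels for both genes.

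Gpt2, an alanine aminotransferase gene, had 3204 on the late array, 1120 and 1526 on the early arrays and 551.5 and 674.8 with FGF alone (1.28 ± 0.25, adjusted p = 0.153 without the early array of experiment 1). Dab2, an endocytic adaptor gene, was among the lower genes with 1445 on the late array, 2561 and 2954 on the early arrays, and 3788 and 4125 with FGF alone (-0.92 ± 0.16, adjusted p = 0.127 without the early array of experiment 2).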
